A study of Homo sapiens with 4 samples.

Results

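The genes described here are 36 markers of colon epithelium, made up of keratins and adhesion molecules, intestinal transcription factors, mucins, trefoil and goblet cell proteins, absorptive and surface proteins, and the carcinoembryonic antigen (CEACAM) family. They were chosen by symbol, and each of the 36 had 1 row among the 33117 rows of the expression table. Their values were read in HT29, a human cell line derived from a colorectal adenocarcinoma and grown in DMEM with fetal calf serum. The treated group was HT29 exposed to 100 µM 5FU for 2 h (2 libraries), and the other group was HT29 left untreated (2 libraries), with no vehicle named. 5FU (fluorouracil) is a pyrimidine analogue whose metabolites block thymidylate synthase and enter RNA. Values are FPKM, fragments per kilobase of transcript scaled to the mapped total, so levels of different genes can be set side by side. The labels do not say whether replicates came from separate cultures, and p-values therefore reflect only how far these libraries differ, possibly for technical reasons. In a bulk library, fewer cells of a kind and less RNA per cell cannot be told apart.

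Colon epithelium renews from stem cells at the crypt base into absorptive colonocytes and mucus-secreting goblet cells. The homeobox factors CDX1 and CDX2 and the nuclear receptor HNF4A set the intestinal programme. Keratins of simple epithelia build the cytoskeleton, E-cadherin and EPCAM hold neighbouring cells together, and gel-forming mucins, folded with the help of AGR2, form the mucus layer that trefoil factors stabilise. Colorectal cancer lines keep parts of this programme, and 5FU is a standard drug for the tumours they derive from.

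The 4 libraries were not alike in what they hold. FPKM summed to 440023 and 764348 in 5FU replicates 1 and 2, against 434045 and 426453 in untreated replicates 1 and 2. Among the 12462 genes that averaged 1 FPKM or more, 42.9% lay more than 1 log2 unit from the untreated mean in 5FU replicate 2, against 4.88% in 5FU replicate 1. In 10909 protein-coding genes the change in 5FU replicate 2 had a Spearman rho of 0.70 with GC content and of -0.46 with transcript length, and in 5FU replicate 1 the rho values were 0.03 and -0.05. These are descriptions across genes, which are not independent replicates. In 5FU replicate 1 and both untreated libraries, low FPKM values stood in ratios of small whole numbers, from which about 14200000 fragments were inferred in 5FU replicate 1 against 14000000 and 14800000 in untreated replicates 1 and 2. No such ratio was found in 5FU replicate 2, and its depth is not known. Results are therefore given for each treated library, and, where it matters, with the GC and length trend of each library removed.

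HT29 cells carried a strong simple-epithelial profile. KRT8, the type II keratin of simple epithelia, measured 3386 and 7734 FPKM in the 5FU libraries and 3439 and 3593 FPKM in the untreated ones. In untreated cells it ranked 6 of 12462 genes by mean FPKM, and its partner KRT18, the type I keratin, ranked 9. Together KRT8 and KRT18 took 1.37% and 1.82% of all FPKM in 5FU replicates 1 and 2 and 1.37% and 1.48% in untreated replicates 1 and 2. The whole set of 36 took 1.88% and 2.32% in the 5FU libraries against 1.92% and 2.03% in the untreated libraries.

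Of the 36 genes, 26 reached a mean of 1 FPKM over the 4 libraries and were tested. Their untreated means ran from 0.733 FPKM for MUC1 to 3516 FPKM for KRT8. The genes above 100 FPKM in untreated cells were KRT8, KRT18, TSPAN8, LGALS4, EPCAM, KRT19, KRT20 and AGR2, all of them above at least 97.8% of tested genes. At the other end were 10 genes under the filter, namely CDX1, CDX2, MUC2, MUC5B, FABP1, FCGBP, GUCA2A, CEACAM7, SLC26A3 and ALPI. These include both caudal homeobox factors and MUC2, the main gel-forming mucin of the colon. In these libraries HT29 thus had several structural markers at high level and several regulators and terminal markers of colon epithelium near the lower limit. Other such genes were not near it, with untreated means of 15.4 FPKM for HNF4A and 223 FPKM for KRT20.

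**Figure D1:**
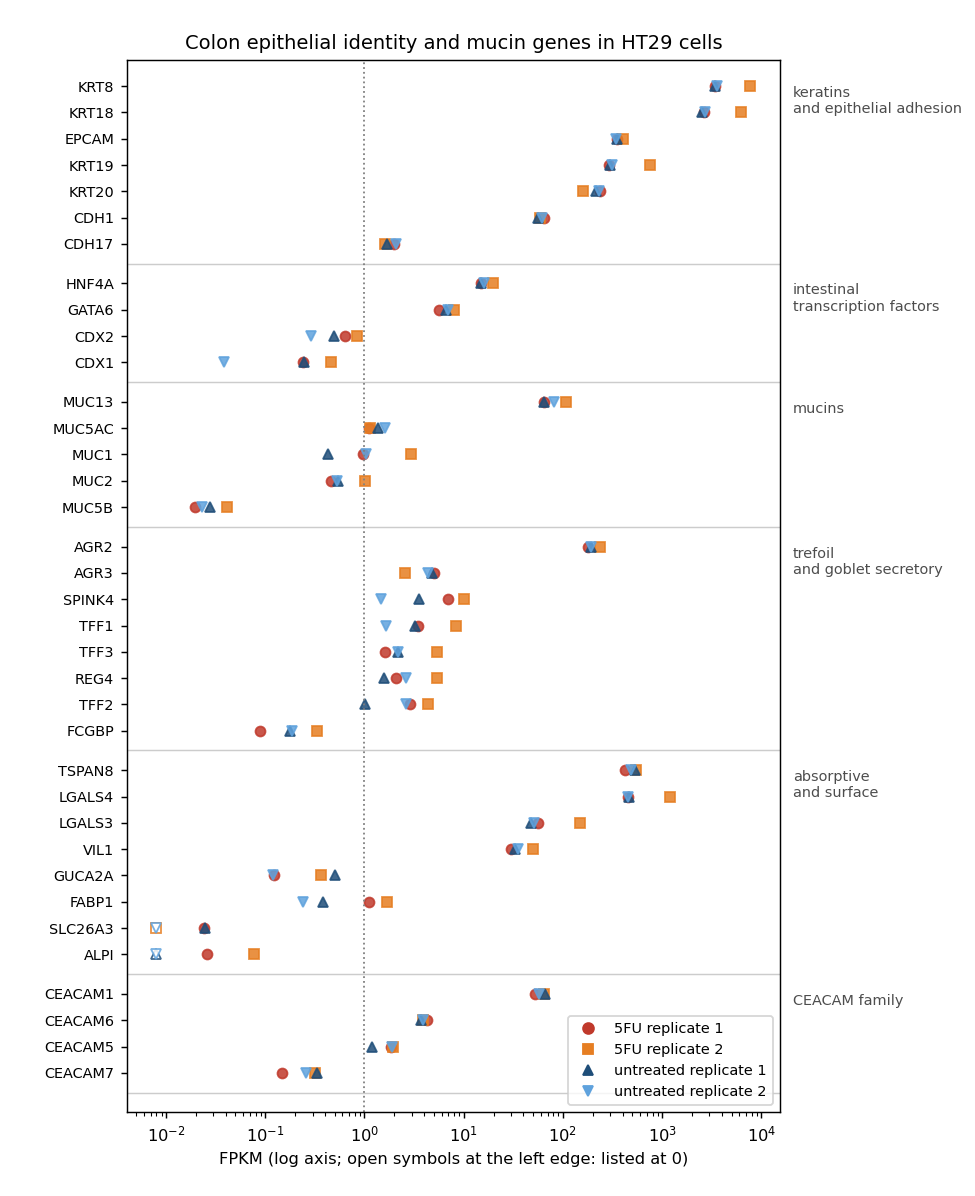
FPKM of all 36 genes on a log axis, grouped by role and ordered by untreated mean, with 1 symbol for each of the 4 libraries and a dotted line at 1 FPKM. For KRT8, KRT18, KRT19, LGALS3 and LGALS4 the square of 5FU replicate 2 stands apart to the right while the other 3 libraries lie close together; SLC26A3 and ALPI are at or near 0.

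Markers of other cell types were checked beside this profile. Of 14 mesenchymal markers, 12 stayed below 1 FPKM in every library and 6 were listed at 0 in all, among them COL1A2, COL3A1, DCN and CDH2, and the list summed to 5.24 and 5.67 FPKM in the 5FU libraries against 6.65 and 6.25 FPKM in the untreated libraries. LUM and ACTA2 made up most of that sum. LUM, the matrix proteoglycan lumican, was at 3.04 and 1.93 FPKM in the 5FU libraries against 4.75 and 4.15 FPKM in the untreated libraries, lower in both 5FU libraries. ACTA2, smooth muscle actin, was at 0.992 and 2.86 FPKM against 1.12 and 0.956 FPKM. The part of these cell type markers in the members' values was not tested. VIM, the intermediate filament of mesenchymal cells, measured 0.110 and 0.154 FPKM in the 5FU libraries and 0.112 and 0.276 FPKM in the untreated ones. Of 11 immune and endothelial markers 9 stayed below 1 FPKM in every library, and the list summed to 12.8 and 34.7 FPKM in the 5FU libraries against 11.9 and 10.3 FPKM in the untreated libraries, most of it CD68 and CD14. Of 20 markers of enteroendocrine, tuft and Paneth cells, 18 stayed below 1 FPKM in every library. The exceptions were LYZ and AVIL. LYZ, lysozyme, was at 1624 and 1753 FPKM in the 5FU libraries against 1835 and 1694 FPKM in the untreated libraries. AVIL was at 4.11 and 2.18 FPKM against 2.65 and 2.25 FPKM.

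5FU for 2 h gave no call among the identity genes. By limma on log2(FPKM + 0.1), 0 of 26 tested members passed an adjusted p below 0.05, and 0% of all 12462 genes did. With unadjusted p below 0.05 there was 1 member, SPINK4, beside 400 genes or 3.21% of all. Both 5FU values lay above both untreated values in 5 of 26 members, beside 24.4% of all genes, and below them in 1 of 26, beside 19.3%. The other 20 overlapped. Of all genes whose groups did not overlap, 55.8% were higher in the 5FU libraries, against 39.5% with the GC and length trend removed and 48.1% with quantile normalization. The median log2 change of the 26 was 0.19, beside 0.10 for all tested genes. Changes on the log2(FPKM + 0.1) scale understate those of low genes. With 2 libraries against 2, an exact two-sided permutation test of a single gene cannot give a p below 0.333.

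Taken by library, the set moved little in 5FU replicate 1. The median log2 change from the untreated mean was 0.02 there, and 1 of 26 members, SPINK4, differed by more than 1 log2 unit. In 5FU replicate 2 the median was 0.45, beside 0.19 for all tested genes. There 11 members or 42.3% differed by more than 1 unit, all of them upward. Of all 12462 tested genes 42.9% did so, 3289 upward and 2055 downward. Between the untreated libraries, 3 members differed by more than 1 unit, namely SPINK4, TFF2 and MUC1. Once the trend with GC and length was taken out, the medians were -0.04 in 5FU replicate 1 and 0.01 in 5FU replicate 2. Under that setting both 5FU values lay above both untreated values in 1 of 26 members, beside 18.8% of 10909 genes, and below in 5, beside 28.7%. The first was LGALS3, and the 5 were GATA6, MUC5AC, KRT19, TFF3 and EPCAM.

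**Figure D2:**
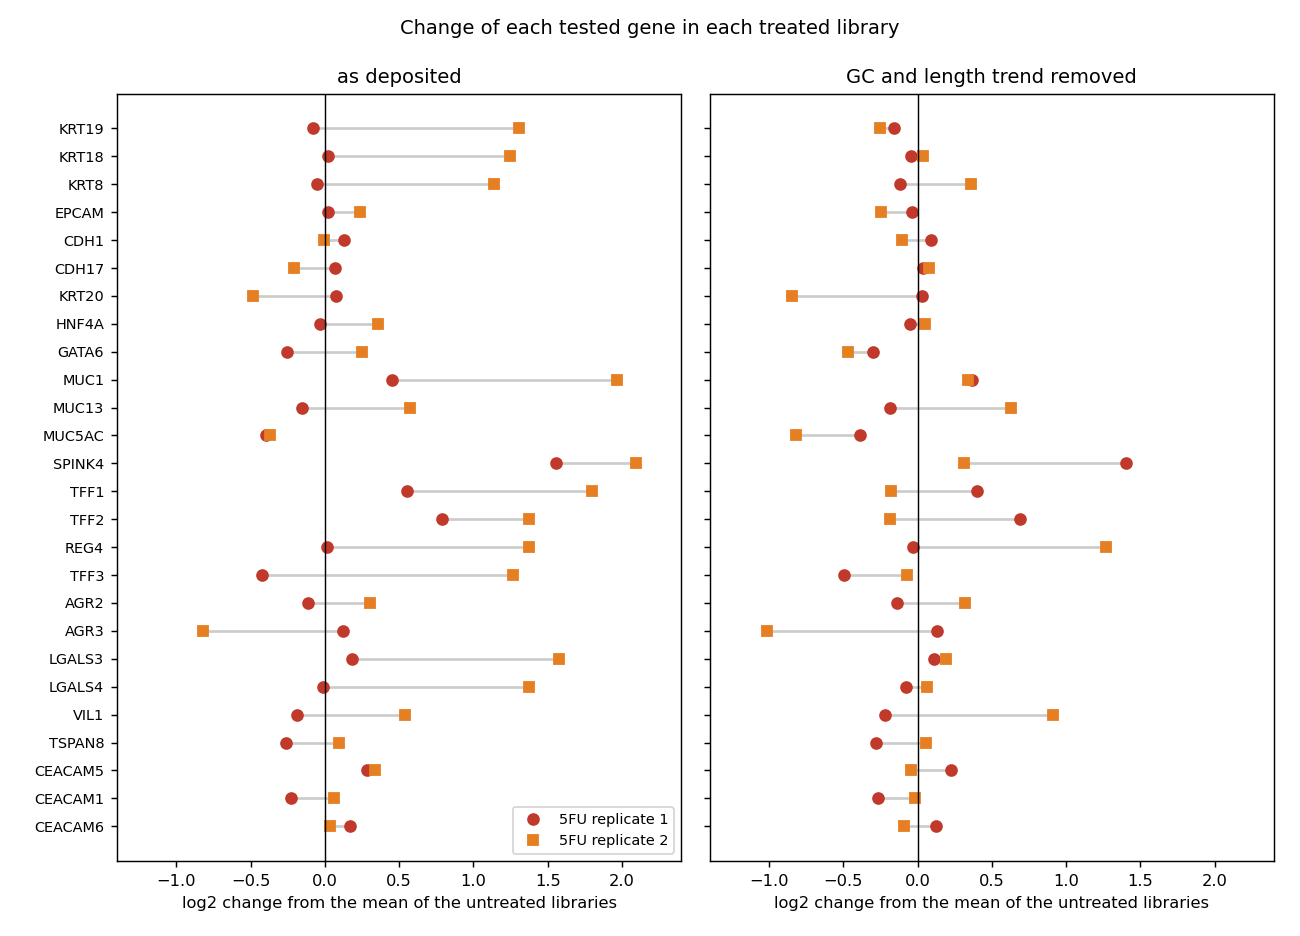
Log2 change of each of the 26 tested genes from the mean of the untreated libraries, with circles for 5FU replicate 1 and squares for 5FU replicate 2; the left panel uses the deposited FPKM and the right panel the values after removal of the GC and length trend of each library. On the left the squares of 11 genes lie above 1 while all circles but that of SPINK4 lie below 1, and on the right the symbols of KRT8, KRT18, LGALS3 and LGALS4 lie within 0.36 of 0 while KRT20 and AGR3 lie lower in 5FU replicate 2.

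Among keratins and adhesion genes, KRT8, KRT18 and KRT19 shared 1 pattern, close to the untreated mean in 5FU replicate 1 and 2.20-fold, 2.37-fold and 2.47-fold of it in 5FU replicate 2. KRT18 had 2649 and 6197 FPKM in the 5FU libraries and 2506 and 2722 FPKM in the untreated ones. KRT19, a small type I keratin without a tail domain, had 288 and 755 FPKM against 299 and 312 FPKM. In each case the groups overlapped, since 5FU replicate 1 lay within or below the untreated values. The limma log2 changes were 0.54 (SE 0.53) for KRT8, 0.63 (SE 0.54) for KRT18 and 0.61 (SE 0.56) for KRT19, with adjusted p from 0.671 to 0.674. After trend removal they were 0.12, -0.0038 and -0.21.

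The ratio of KRT8 to KRT18 within a library does not depend on the library total. It was 1.28 and 1.25 in the 5FU libraries and 1.37 and 1.32 in the untreated ones. KRT8 and KRT18 are neighbours on chromosome 12 (GRCh38; KRT8 at chr12:52897187-52949954 on the minus strand, KRT18 at chr12:52948871-52952901 on the plus strand), and the ends of their annotated spans overlap. Whether reads were counted by strand is not given in the sources used here. GENCODE 29 lists 50 pseudogenes of KRT8 and 68 of KRT18, of which the table has 1 row each, at no more than 0.0362 FPKM, so reads of the copies without a row cannot be told apart from those of the parent genes.

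KRT20, a keratin of differentiated colon and gastric epithelium, went the other way in 5FU replicate 2. It measured 235 and 159 FPKM in the 5FU libraries and 214 and 232 FPKM in the untreated ones. Its ratio to KRT18 was 0.0887 and 0.0257 in the 5FU libraries against 0.0854 and 0.0853 in the untreated libraries. The transcript of KRT20 has 45.7% GC, against 61.8% for KRT19 and 57.0% for KRT18. After trend removal KRT20 lay below the untreated mean in 5FU replicate 2, by a log2 change of -0.84, and was at 0.03 in 5FU replicate 1.

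EPCAM, a homophilic adhesion molecule of epithelia, measured 351 and 407 FPKM in the 5FU libraries and 347 and 345 FPKM in the untreated ones. The groups did not overlap, yet its log2 change was 0.13 (SE 0.30, limma adjusted p = 0.839), and the direction turned with the trend removed (-0.14) and with quantile normalization (-0.41). CDH1, which encodes E-cadherin, had 64.2 and 58.5 FPKM against 56.1 and 61.7 FPKM. CDH17, the liver-intestine cadherin, was low at 1.97 and 1.62 FPKM in the 5FU libraries and 1.70 and 2.08 FPKM in the untreated ones. Neither cadherin separated the groups.

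Of the transcription factors in the set, HNF4A and GATA6 were tested, and neither separated the groups. HNF4A, a nuclear receptor that drives enterocyte genes, measured 15.1 and 19.7 FPKM in the 5FU libraries and 14.9 and 15.9 FPKM in the untreated ones. GATA6, a zinc finger factor of intestinal progenitors, measured 5.63 and 8.04 FPKM against 6.63 and 6.88 FPKM. Once the trend was taken out, GATA6 lay below both untreated values in both 5FU libraries, at log2 changes of -0.30 and -0.47 (limma adjusted p = 0.586). Noncoding genes lie on the opposite strand within both loci, HNF4A-AS1 and GATA6-AS1, with at most 1.22 FPKM in any library.

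CDX1 and CDX2, the caudal homeobox factors, were under the filter. CDX2 had 0.631 and 0.834 FPKM in the 5FU libraries and 0.488 and 0.290 FPKM in the untreated ones. Both 5FU values were higher, but the smallest whole fragment numbers behind them were 21 in 5FU replicate 1 against 16 and 10 in the untreated libraries. CDX1 had 0.239 and 0.463 FPKM against 0.243 and 0.0384 FPKM, where the whole numbers were 6 in 5FU replicate 1 against 6 and 1. Here and for the genes below, such numbers may stand for a whole multiple of themselves, and they show how few fragments such values may rest on.

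Other intestinal transcription factors were more often lower than higher. Of 22 such genes, 15 were tested; both 5FU values lay below both untreated values in 7 and above them in 2, beside 19.3% and 24.4% of all genes. Their median log2 change was -0.61 in 5FU replicate 1 and -0.05 in 5FU replicate 2. With the trend removed the medians were -0.69 and -0.71. Under that setting 11 of 15 were lower and 1 higher, beside 28.7% and 18.8% of 10909 genes. None passed the adjusted limma test, either as deposited or with the trend removed. As deposited, 6 had an unadjusted limma p below 0.05, beside 3.21% of all genes. The difference between these factors and the 26 members was not tested. Because the list was chosen with earlier results of these data known, its counts only describe the listed genes.

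KLF5, a Krüppel-like factor of proliferating crypt cells, had 50.0 and 44.2 FPKM in the 5FU libraries and 119 and 118 FPKM in the untreated ones, a log2 change of -1.33 (SE 0.28, limma adjusted p = 0.671). PPARG, a nuclear receptor of differentiated colonocytes, had 30.1 and 35.1 FPKM against 69.5 and 57.9 FPKM. EHF, an epithelial ETS factor, had 50.8 and 24.1 FPKM against 89.3 and 93.5 FPKM. KLF4, a factor of goblet cell differentiation, was higher, with 6.80 and 5.73 FPKM in the 5FU libraries and 3.29 and 2.33 FPKM in the untreated ones. For each of these 4 genes the treated and untreated values did not overlap, and the direction was the same with the trend removed. ATOH1, the factor that commits cells to the secretory lineage, was chosen after its values were seen and was under the filter, at 0.0663 and 0.230 FPKM against 1.28 and 1.79 FPKM.

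**Figure D3:**
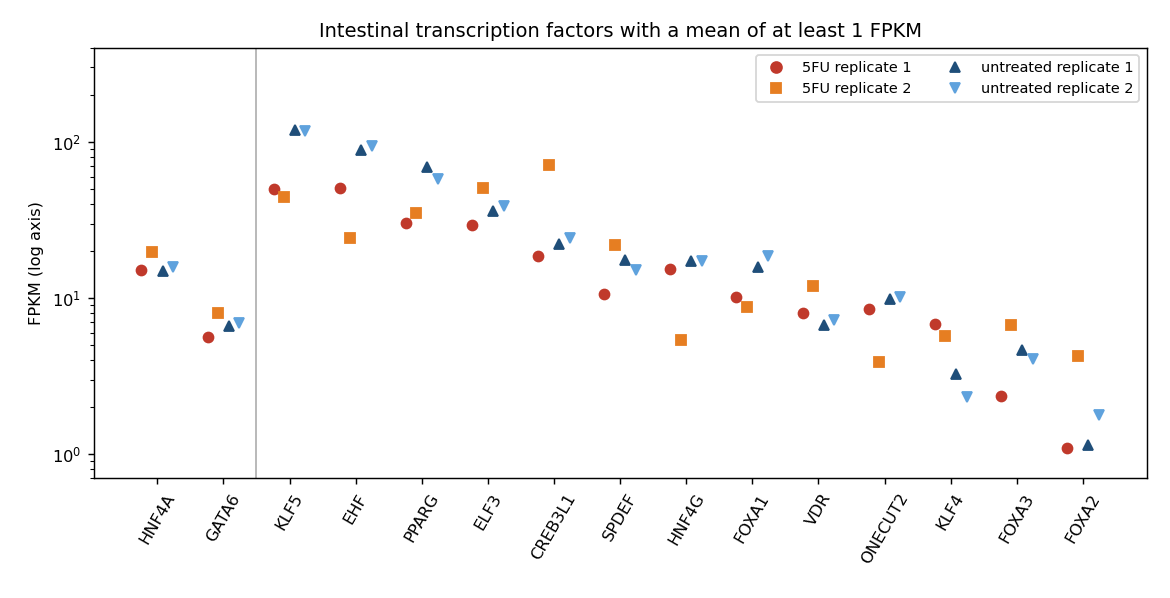
FPKM on a log axis of HNF4A and GATA6 (left of the line) and of 13 further intestinal transcription factors that averaged 1 FPKM or more, ordered by mean, with both 5FU libraries drawn left of both untreated libraries for each gene. KLF5, EHF and PPARG show both 5FU symbols below both untreated symbols and KLF4 shows the reverse, while HNF4A and GATA6 overlap.

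The mucin genes of the set ranged widely in level. MUC13, a transmembrane mucin of the apical surface, was the most abundant, with 65.0 and 108 FPKM in the 5FU libraries and 64.3 and 81.2 FPKM in the untreated ones. MUC5AC, a gel-forming mucin typical of stomach and airways, was the single member with lower values in both 5FU libraries, at 1.11 and 1.13 FPKM against 1.38 and 1.61 FPKM. The difference was small, with a log2 change of -0.38 (SE 0.51, limma adjusted p = 0.724), and with the trend removed it was -0.60. MUC1, a transmembrane mucin, had 0.961 and 2.93 FPKM against 0.429 and 1.04 FPKM (log2 change 1.21, SE 0.85, limma adjusted p = 0.671). Its transcript has 71.2% GC, the highest among the 26, and with the trend removed its log2 change was 0.35.

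MUC2 was below MUC5AC in each of the 4 libraries, at 0.463 and 1.01 FPKM in the 5FU libraries and 0.545 and 0.527 FPKM in the untreated ones. MUC5B, a gel-forming mucin of airways, was at 0.0197 and 0.0409 FPKM against 0.0280 and 0.0228 FPKM. MUC2, MUC5AC and MUC5B lie in 1 cluster on chromosome 11 (GRCh38, between positions 1074875 and 1262172) and carry long repeats, so their FPKM depends on how repeat reads and transcript length were handled. The longest MUC2 transcript in the basic set of GENCODE 29 has 393 nt and is incomplete.

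In the trefoil and goblet group, 3 of 7 tested genes, SPINK4, TFF1 and TFF2, had higher values in both 5FU libraries and none had lower ones, beside 24.4% and 19.3% of all genes. After trend removal none of the 7 was higher and 1, TFF3, was lower. SPINK4, a Kazal-type protease inhibitor made by goblet cells, measured 6.91 and 10.1 FPKM in the 5FU libraries and 3.51 and 1.48 FPKM in the untreated ones. The limma log2 change of SPINK4 was 1.83 (SE 0.53, unadjusted p = 0.0244, adjusted p = 0.671). The gene lies at chr9:33218365-33248567 on the plus strand (GRCh38). BAG1, a chaperone regulator, overlaps it on the opposite strand and had 12.5 and 9.07 FPKM in the 5FU libraries against 16.3 and 14.8 FPKM in the untreated libraries, lower in both 5FU libraries where SPINK4 was higher. The smallest whole numbers for SPINK4 were 18 in 5FU replicate 1 against 9 and 4 in the untreated libraries, and the untreated pair thus differed by more than 2-fold. With the trend removed the log2 changes were 1.41 in 5FU replicate 1 and 0.31 in 5FU replicate 2, the groups overlapped, and the change over the libraries was 0.86 (SE 0.53, limma adjusted p = 0.586).

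TFF1, a secreted trefoil peptide of gastric pit cells, had 3.45 and 8.29 FPKM in the 5FU libraries and 3.21 and 1.66 FPKM in the untreated ones (log2 change 1.18, SE 0.61). TFF2, the trefoil peptide of gastric neck glands, had 2.89 and 4.39 FPKM against 1.01 and 2.60 FPKM (log2 change 1.08, SE 0.60). The limma adjusted p was 0.671 for both. For both, 5FU replicate 1 lay only slightly above the higher untreated library. TFF3, the trefoil peptide of colonic goblet cells, overlapped, with 1.61 and 5.40 FPKM against 2.18 and 2.20 FPKM. The smallest whole numbers in 5FU replicate 1 were 12 for TFF1, against 11 and 6 untreated, and 12 for TFF3, against 16 and 17 untreated. After trend removal TFF1 and TFF2 overlapped between the groups, and their log2 changes were 0.11 and 0.25. The trefoil genes sit side by side on chromosome 21 (GRCh38, between positions 42311667 and 42366594, minus strand).

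The remaining goblet genes did not separate the groups. REG4, a secreted C-type lectin, had 2.06 and 5.44 FPKM in the 5FU libraries and 1.59 and 2.62 FPKM in the untreated ones (log2 change 0.69, SE 0.63, limma adjusted p = 0.671). AGR2, a disulfide isomerase of the endoplasmic reticulum needed for mucin folding, was abundant and even, with 179 and 238 FPKM against 193 and 193 FPKM. Its neighbour AGR3 was at 5.00 and 2.55 FPKM against 4.80 and 4.37 FPKM, and with 36.4% GC it was the member with the most AT-rich transcript. Its log2 change in 5FU replicate 2 was -0.82 as deposited and -1.02 with the trend removed. In 5FU replicate 1 AGR3 was at 0.12 and 0.13. FCGBP, a large protein of the mucus layer, was below the filter at 0.0881 and 0.336 FPKM against 0.179 and 0.186 FPKM. Of 13 further goblet cell genes, 7 were tested. By range 1 was higher and 1 lower, beside 24.4% and 19.3% of all genes. CLCA1, ZG16 and ITLN1 were listed at 0 in every library.

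Absorptive and surface genes split into abundant and nearly silent members. LGALS4, a galectin of the colonic brush border, had 455 and 1188 FPKM in the 5FU libraries and 463 and 453 FPKM in the untreated ones (log2 change 0.68, SE 0.56). LGALS3, a galectin found in many cell types, had 56.1 and 147 FPKM against 48.0 and 50.8 FPKM (log2 change 0.88, SE 0.55), and was the member of this group whose tested values did not overlap. The limma adjusted p was 0.671 for both. With the trend removed, LGALS4 was at -0.0051 and LGALS3 at 0.15, and LGALS3 was the single member still higher in both 5FU libraries. TSPAN8, a tetraspanin of epithelial cancers, had 424 and 542 FPKM against 537 and 480 FPKM. LGR5, on the opposite strand of the annotated TSPAN8 span, had no more than 4.94 FPKM in any library. VIL1, the actin-bundling protein of microvilli, had 29.8 and 49.4 FPKM against 32.6 and 35.3 FPKM, and with the trend removed it was at 0.91 in 5FU replicate 2 and -0.22 in 5FU replicate 1.

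FABP1, the liver-type fatty acid binding protein of enterocytes, was under the filter but had higher values in both 5FU libraries, at 1.12 and 1.70 FPKM against 0.378 and 0.239 FPKM. Fitted without a filter, FABP1 had a limma log2 change of 1.88 (SE 0.55, unadjusted p = 0.0257, adjusted p = 0.694). The smallest whole numbers behind the values were 9 in 5FU replicate 1 against 3 and 2 in the untreated libraries. GUCA2A, the precursor of guanylin, had 0.123 and 0.365 FPKM against 0.499 and 0.118 FPKM, from whole numbers of 1 in 5FU replicate 1 against 4 and 1. SLC26A3, the chloride-bicarbonate exchanger of colonocytes, and ALPI, intestinal alkaline phosphatase, never exceeded 0.0768 FPKM. SLC26A3 was listed at 0 in 5FU replicate 2 and untreated replicate 2, and ALPI in both untreated libraries. GUCA2A and SLC26A3 overlapped between the groups. For ALPI both 5FU values, 0.0258 and 0.0768 FPKM, lay above 0, with a whole number of 1 in 5FU replicate 1. Values this low cannot settle a difference for any of these genes.

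FABP1 and SPINK4 were the members with the largest log2 changes in 5FU replicate 1, at 1.59 and 1.55, and the 250 bases before their RefSeq starts (GRCh38.p14) are shown for that reason. FABP1 is read from chr2:88128063-88128312 on the minus strand and SPINK4 from chr9:33239917-33240166 on the plus strand, each 5′ to 3′. Capitals mark exact matches, on either strand, to letters chosen for intestinal factors. The CDX motif was spelled CATAAA. The motif for GATA factors was spelled AGATAA. The TATA box was spelled TATAAA. For HNF4 the letters were CAAAGTCCA.
FABP1: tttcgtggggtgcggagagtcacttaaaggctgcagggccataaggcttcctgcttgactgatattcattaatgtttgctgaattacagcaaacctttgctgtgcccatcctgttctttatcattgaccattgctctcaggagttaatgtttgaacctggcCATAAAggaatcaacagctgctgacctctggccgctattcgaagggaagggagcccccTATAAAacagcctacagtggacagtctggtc
SPINK4: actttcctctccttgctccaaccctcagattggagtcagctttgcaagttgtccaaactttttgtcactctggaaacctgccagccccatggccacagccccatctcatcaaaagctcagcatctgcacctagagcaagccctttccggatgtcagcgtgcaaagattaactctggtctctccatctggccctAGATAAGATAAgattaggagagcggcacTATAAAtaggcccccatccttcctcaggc
The FABP1 sequence holds a match to CDX and then to TATA. The SPINK4 sequence holds a pair of GATA matches that share 1 base, and a TATA match. Among 15842 protein-coding promoters of that length, the CDX letters occurred in 7.35%, the GATA letters in 6.84%, the TATA box in 9.23% and the HNF4 letters in 0.259%. Of the 24 members with a promoter entry, 7 held the CDX letters, 6 those of GATA, 6 the TATA box and 1, MUC13, those of HNF4. These letters describe the sequences and are not evidence of binding.

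In the CEACAM family, cell adhesion molecules that include the tumour marker CEA, no gene separated the groups. CEACAM1, a coinhibitory adhesion receptor, led with 52.6 and 64.1 FPKM in the 5FU libraries and 65.2 and 58.0 FPKM in the untreated ones. CEACAM6 had 4.30 and 3.90 FPKM against 3.68 and 3.93 FPKM. CEACAM5, which encodes CEA, had 1.84 and 1.92 FPKM against 1.20 and 1.87 FPKM. CEACAM7, a marker of mature colonocytes, was under the filter at 0.148 and 0.320 FPKM against 0.330 and 0.256 FPKM. The order of the levels, with CEACAM1 first and CEACAM7 last, was the same in the 4 libraries. These genes share sequence and lie together on chromosome 19, so the split of reads among them is uncertain.

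Across the 26, the change in 5FU replicate 2 had a Spearman rho of 0.55 with GC content and of -0.43 with transcript length, and in 5FU replicate 1 the rho values were 0.12 and -0.36. Leaving out 5FU replicate 1, 13 members passed (limma adjusted p below 0.05), beside 66.9% of all genes. Leaving out 5FU replicate 2, 0 members passed, beside 0.144% of all genes. Each of these fits takes its spread from the untreated libraries alone and assumes that the single 5FU library varies like them, so it compares that library with the untreated pair. With the replicate number as a block, 0 members passed, beside 2.72%. Reference genes followed the same split: the median log2 change of 15 was 0.0068 in 5FU replicate 1 and 0.72 in 5FU replicate 2, and 0.12 in 5FU replicate 2 with the trend removed.

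**Figure D4:**
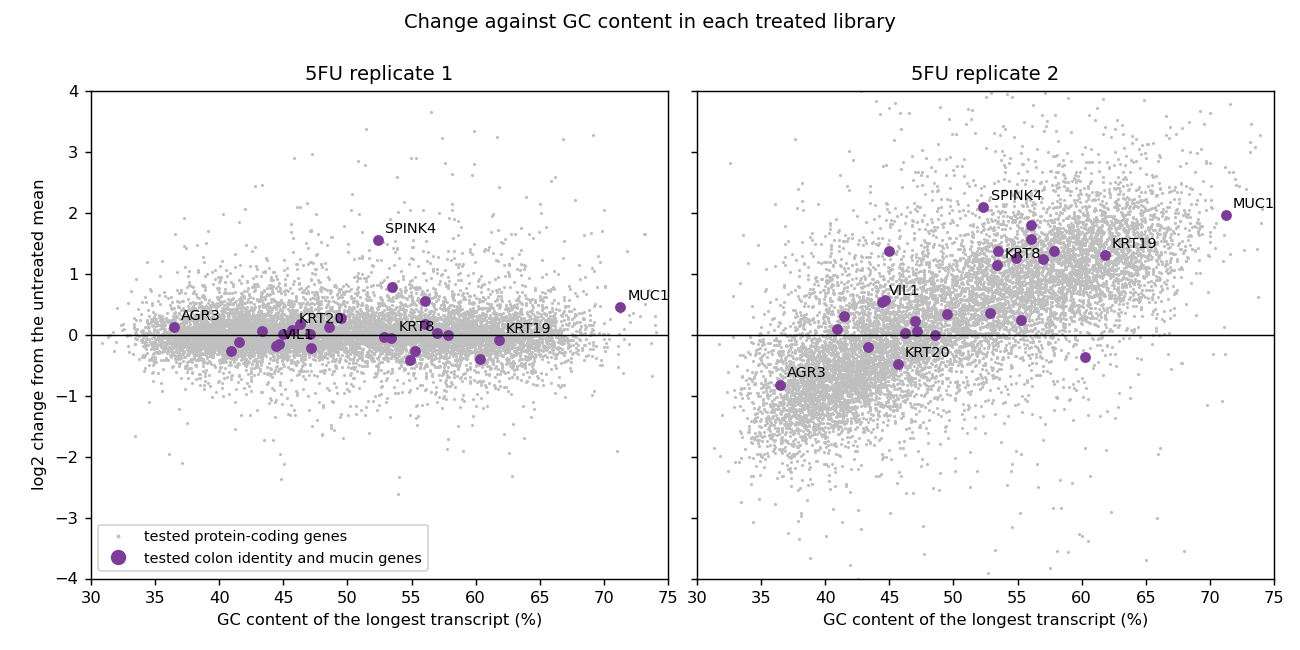
Log2 change from the untreated mean against GC content of the longest transcript for 10909 protein-coding genes (grey) and the 26 tested colon identity and mucin genes (purple), with 5FU replicate 1 on the left and 5FU replicate 2 on the right; 5 and 155 genes lie outside the axes. In 5FU replicate 1 the purple points lie along 0 with SPINK4 above, and in 5FU replicate 2 they follow the upward slope of the grey cloud, with AGR3 and KRT20 below 0 and KRT19 and MUC1 above 1.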

How the data were processed

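RNA-seq of HT29 cells was deposited as 1 table of FPKM for 4 libraries, 2 per group. The authors' FPKM values were made with TopHat2 2.1.0 and Cufflinks 2.2.1 named among the tools, per the submitters' processing notes; the strand of counting and the tools' settings were not stated. FPKM are not counts, so no count test was run. Genes averaging 1 FPKM or more (12462 of 33117 rows) were tested on log2(FPKM + 0.1) with limma 3.58.1 in R 4.3.3, 5FU minus untreated, with Benjamini-Hochberg adjustment over all tested genes and a threshold of 0.05. As an alternative, a trend with GC content and transcript length was removed from each library by loess (span 0.3) over 10909 protein-coding genes. Both were taken from the longest transcript of a gene in the GENCODE 29 basic set. The fits were tested on simulated data in which all 4 libraries had the spread seen between the untreated ones. That setting does not cover the difference between the 5FU libraries. In 5FU replicate 1 and the untreated libraries, 2700 of 2901 protein-coding rows below 1 FPKM (93.1%) gave whole numbers up to 60 (tolerance 0.01), from which depth was inferred (quartiles 12600000 to 15500000 fragments in untreated replicate 1). The members and gene lists were chosen with earlier results of these data known. Every member is named; full statistics go to the 10 smallest p, and companion genes are named from the 3 most abundant tested genes of each list and the 3 smallest p among those whose groups do not overlap. VIM, ATOH1 and the markers named at 0 were chosen after their values were seen. Some genes counted in a companion list are not reported here. Alternatives were another pseudocount, other filters, quantile normalization, median centring, a replicate block, and leaving out each library.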

Additional observations from a re-analysis of the deposited data

How the results depend on the processing

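No member was called under any setting run except without 5FU replicate 1, a fit whose spread comes from the untreated libraries alone and assumes that the lone 5FU library varies like them. Leaving out each library in turn, genes called ranged from 0 to 8337, members called from 0 to 13, members whose remaining 5FU values all lay above the remaining untreated values from 6 to 19, those below from 2 to 9 (with 1 library in an arm, no overlap is easier to reach), and the median log2 change of members from 0.02 to 0.45; without 5FU replicate 2, 18 genes were called. Members higher by range were 8 of 36 with no filter, 3 of 16 at a mean of at least 5 FPKM, and 1 of 26 after removal of the trend with GC and length, with or without the block. Over all genes these counts were 4792 of 20180, 2047 of 8706 and 2047 of 10909. Members lower by range were 0 of 16 at a mean of at least 5 FPKM, 5 of 26 with quantile normalization, and 5 of 26 with the trend removed, with or without the block. Over all genes these counts were 1754 of 8706, 2804 of 12462 and 3135 of 10909. Some log2 changes of members, none of them called, turned in sign. With quantile normalization this held for EPCAM (-0.41), AGR2 (-0.35), CDH1 (-0.21), MUC13 (-0.11), VIL1 (-0.055) and KRT18 (-0.028). With the trend removed, with or without the block, it held for TFF3 (-0.28), KRT19 (-0.21), EPCAM (-0.14), CDH17 (0.058), CDH1 (-0.0078), LGALS4 (-0.0051) and KRT18 (-0.0038). Leaving out 1 library, 15 members turned in sign at least once, with ranges of -0.054 to 1.14 for KRT8, -0.084 to 1.31 for KRT19, -0.49 to 0.075 for KRT20, -0.0097 to 0.13 for CDH1, -0.21 to 0.067 for CDH17, -0.030 to 0.35 for HNF4A, -0.26 to 0.25 for GATA6, -0.15 to 0.57 for MUC13, -0.42 to 1.26 for TFF3, -0.11 to 0.30 for AGR2, -0.82 to 0.12 for AGR3, -0.19 to 0.54 for VIL1, -0.011 to 1.37 for LGALS4, -0.26 to 0.093 for TSPAN8 and -0.23 to 0.060 for CEACAM1. Quantile normalization moved the median log2 change of all genes to -0.02, against 0.10. The cause of these moves was not tested.

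The labels do not say whether equal replicate numbers pair the samples. Deviations of same-numbered libraries from their group means had r = -0.05 over 12462 genes. That value cannot decide the matter, because the 5FU libraries differ from each other along GC content and length. With the replicate block, 339 genes and 0 members were called by limma. Among single members, 276 alternative values kept direction and call, 13 newly passed the threshold and 39 changed sign. The block of 78 neighbouring rows that in 5FU replicate 2 correlates better after a shift of 1 row (r = 0.914, against 0.410 in place) holds 0 members; leaving it out was chosen after seeing the data and changed none of the members' counts. Depth limits the members under 1 FPKM, whose values rest on few fragments.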

Other observations

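Of 23 other mucin and glycosylation genes, 12 were tested, and both 5FU values lay below both untreated values in 7 and above in 1, beside 19.3% and 24.4% of all genes, and likewise in 7 and 1 after removal of the trend with GC and length, beside 28.7% and 18.8%. The difference from all genes was not tested, and none passed the limma adjusted test. This list too was chosen with earlier results of these data known, so its counts only describe the listed genes. GCNT3, a core-branching enzyme of mucin O-glycans, had 99.5 and 113 FPKM in the 5FU libraries and 268 and 227 FPKM in the untreated ones. ST3GAL1, a sialyltransferase, had 44.9 and 46.5 FPKM against 75.3 and 69.4 FPKM. GALNT3, which starts O-glycans, had 37.6 and 21.4 FPKM against 43.3 and 42.7 FPKM. FUT2, the secretor fucosyltransferase, had 1.94 and 2.03 FPKM against 4.12 and 4.74 FPKM. The direction of these 4 genes was the same with the GC and length trend removed.

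Of 31 other keratin and junction genes, all were tested, 5 were higher and 7 lower by range, beside 24.4% and 19.3% of all genes. With the GC and length trend removed 3 were higher and 11 lower, beside 18.8% and 28.7%. CLDN15, a claudin of the gut, had 11.3 and 14.5 FPKM in the 5FU libraries and 6.36 and 5.88 FPKM in the untreated ones. With the trend removed its log2 change was 0.82 in 5FU replicate 1 and -0.036 in 5FU replicate 2. CLDN1, a tight junction claudin, was lower in both 5FU libraries, with a log2 change of -0.60 (SE 0.28, limma adjusted p = 0.671). JUP, the plakoglobin of junctions, had 107 and 286 FPKM in the 5FU libraries and 91.3 and 95.4 FPKM in the untreated ones. CDH3, P-cadherin, had 1.42 and 4.91 FPKM against 1.19 and 0.891 FPKM. With the trend removed the log2 changes in 5FU replicates 1 and 2 were 0.17 and 0.48 for JUP and 0.40 and 1.61 for CDH3. The abundant junction genes CLDN4 and ST14 overlapped, with 123 and 290 FPKM against 146 and 142 FPKM for CLDN4 and 113 and 260 FPKM against 121 and 110 FPKM for ST14. Of 39 other absorptive and brush border genes, 13 were tested, 2 were higher and 3 lower, beside 24.4% and 19.3% of all genes. With the trend removed 2 were higher and 5 lower, beside 18.8% and 28.7%. PHGR1, a small protein of gut epithelium, had 36.1 and 276 FPKM against 32.3 and 36.5 FPKM, so the difference lay in 5FU replicate 2. There its log2 change was 3.01, and 0.55 with the trend removed. EZR, the ezrin of microvilli, had 164 and 136 FPKM against 181 and 179 FPKM, and PLS1, the plastin of microvilli, had 49.5 and 20.5 FPKM against 62.6 and 56.2 FPKM. EPS8, an actin-capping protein, had 53.5 and 31.7 FPKM against 65.3 and 63.1 FPKM, while USH1C, the harmonin of the brush border, had 23.0 and 69.1 FPKM against 19.4 and 22.0 FPKM. Among 15 reference genes 6 were higher and 2 lower by range, beside 24.4% and 19.3% of all genes. With the trend removed 4 were higher and 4 lower, beside 18.8% and 28.7%. GAPDH had 2034 and 4949 FPKM in the 5FU libraries and 1740 and 1913 FPKM in the untreated ones.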
